A study of Mus musculus with 3 samples.

Results

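The genes described here are 31 immediate early and heat shock genes, chosen by name from the 31062 genes of 1 single-cell count matrix. They are 6 AP-1 factors (Fos, Fosb, Jun, Junb, Jund and Atf3), 7 other immediate early transcription factors (Egr1, Egr2, Egr3, Klf2, Klf4, Klf6 and Nr4a1), and 8 genes of signalling and growth feedback (Dusp1, Dusp2, Ier2, Ier3, Ier5, Btg2, Rhob and Gadd45b). The others are 4 genes of NF-kB and cytokine feedback (Nfkbia, Nfkbiz, Zfp36 and Socs3) and 6 heat shock genes (Hspa1a, Hspa1b, Hspa8, Hsp90aa1, Dnajb1 and Dnaja1). All 31 symbols were found in the matrix, each on 1 row. No expression value was used to choose them, although earlier results of these data were known.

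Brains of female C57Bl/6 mice, 2 to 3 months old, carried metastases seeded by carotid injection of E0771, a mouse mammary carcinoma line. Some of the mice were given anti-VISTA and anti-PD-L1, antibodies against a pair of immune checkpoint proteins, on alternate days from day 3 after injection, and others were not. After perfusion with PBS and enzymatic digestion, immune cells were enriched on Percoll, and each of 8 suspensions was stained with 35 tagged antibodies and its own hashtag antibody before all were pooled in 1 10x Genomics capture. Transcripts, antibody tags and hashtags were then counted for the same barcodes (CITE-seq), so the 3 deposited libraries share all their cells. The labels do not state which hashtags marked treated brains, so any of the 8 hashtag samples may be treated or untreated and no treatment comparison was made. Nor do the sources say that each hashtag was a separate animal. With the hashtag sample as a block, each p-value rests on how a class difference within samples varies from one hashtag sample to the next. The fit moderates this variation with that of all genes tested, so a p-value does not rest on the samples of 1 gene alone. The variation between hashtag samples may be partly technical. All suspensions were digested, so transcription in the living tissue and transcription begun during digestion cannot be told apart.

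Immediate early genes are transcribed within minutes of a stimulus from promoters that need no new protein synthesis. FOS and JUN family proteins pair to form AP-1, a transcription factor that relays growth factor, stress and calcium signals, and EGR and KLF factors act beside it. Many of the other genes end the same signals: dual-specificity phosphatases such as DUSP1 switch off MAP kinases, NFKBIA (I kappa B alpha) holds NF-kB in the cytoplasm, ZFP36 destabilises cytokine transcripts and SOCS3 restrains cytokine receptors. Heat shock genes encode chaperones that are induced by protein damage through heat shock factor, together with HSPA8 and HSP90AA1, which are also abundant without stress. Warm enzymatic digestion of tissue is known to induce both sets, and microglia are known to respond strongly.

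Promoter sequence is shown for 6 members, one or more for each motif of these pathways that had a match upstream. RefSeq windows of build GRCm38.p6 covered 25 of the 31 genes. They did not cover Egr1, Egr3, Ier2, Nfkbiz, Hspa8 and Hsp90aa1. Each line gives the 250 bases before the start site, 5′ to 3′ on the gene's own strand, with the matched motif in capitals. Jun lies at chr4:95052223-95052472, minus strand, Btg2 at chr1:134079156-134079405, minus strand, Zfp36 at chr7:28379229-28379478, minus strand and Nfkbia at chr12:55492648-55492897, minus strand. The neighbouring genes Hspa1a and Hspa1b lie at chr17:34972157-34972406, minus strand and chr17:34959239-34959488, minus strand.
Jun: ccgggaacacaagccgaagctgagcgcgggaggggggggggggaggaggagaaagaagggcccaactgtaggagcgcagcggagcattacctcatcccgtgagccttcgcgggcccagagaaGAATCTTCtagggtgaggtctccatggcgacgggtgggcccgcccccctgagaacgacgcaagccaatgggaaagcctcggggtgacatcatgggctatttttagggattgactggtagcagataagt
Btg2: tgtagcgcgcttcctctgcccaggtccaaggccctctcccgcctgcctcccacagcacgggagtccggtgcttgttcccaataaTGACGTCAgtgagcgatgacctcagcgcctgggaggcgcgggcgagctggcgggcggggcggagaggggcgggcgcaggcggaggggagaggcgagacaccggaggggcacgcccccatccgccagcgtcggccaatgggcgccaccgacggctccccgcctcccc
Zfp36: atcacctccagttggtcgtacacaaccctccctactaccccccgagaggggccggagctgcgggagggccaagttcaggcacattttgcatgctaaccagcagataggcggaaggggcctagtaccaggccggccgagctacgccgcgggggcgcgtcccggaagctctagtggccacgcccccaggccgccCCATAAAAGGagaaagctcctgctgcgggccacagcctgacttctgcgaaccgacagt
Nfkbia: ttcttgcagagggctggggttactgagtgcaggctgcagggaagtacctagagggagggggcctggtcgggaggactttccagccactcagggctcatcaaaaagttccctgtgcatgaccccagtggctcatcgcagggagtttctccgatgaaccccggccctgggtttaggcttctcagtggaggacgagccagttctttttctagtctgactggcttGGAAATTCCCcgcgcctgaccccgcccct
Hspa1a: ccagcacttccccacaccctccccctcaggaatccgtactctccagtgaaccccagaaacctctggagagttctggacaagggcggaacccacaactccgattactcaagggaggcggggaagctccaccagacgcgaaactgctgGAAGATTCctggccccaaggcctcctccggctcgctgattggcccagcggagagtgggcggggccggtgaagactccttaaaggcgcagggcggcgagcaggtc
Hspa1b: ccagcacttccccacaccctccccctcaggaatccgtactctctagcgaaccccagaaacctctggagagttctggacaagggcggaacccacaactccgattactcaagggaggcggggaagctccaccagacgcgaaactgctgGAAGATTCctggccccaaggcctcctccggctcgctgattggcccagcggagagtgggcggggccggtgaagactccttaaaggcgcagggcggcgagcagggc
In Jun, Hspa1a and Hspa1b the capitals mark the core of a heat shock element (GAANNTTC), which starts 128 bases before the start site in Jun and 104 bases before it in both Hspa1 genes. In Btg2 they mark a cyclic AMP response element (TGACGTCA) 166 bases upstream, in Zfp36 a CArG box, the site of serum response factor, 58 bases upstream, and in Nfkbia a kappaB site 29 bases upstream.

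Both strands of the full windows, which run 250 bases before to 50 after the start, were searched for 5 motifs. A match to the cyclic AMP element cannot hold a match to the AP-1 site, nor the reverse. The heat shock core was found in 4 of the 25 members (Dnaja1, Jun, Hspa1a and Hspa1b) and in 7.86% of 32851 windows of all genes. A kappaB site was found in 5 members (Fosb, Fos, Nfkbia, Nr4a1 and Ier3) and in 4.51% of windows. The response element of cyclic AMP was in 2 members (Btg2 and Dusp1) and 1.79% of windows, the CArG box in 2 (Zfp36 and Egr2) and 1.63%, and the AP-1 site TGANTCA in 0 members and 7.81%. A member counts here if any of its windows matched (Egr2 had 5 windows, Dnaja1 3 and Dnajb1 2), whereas the percentages are of single windows. The 2 are therefore not like for like. Such matches describe letters only, and say nothing of binding. The 250 upstream bases of Hspa1a and Hspa1b are identical at 247 positions, and reads of these near-identical neighbours may be split between them by the counting, so the level of each is uncertain.

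Of 12908 barcodes, 12334 passed limits on genes and mitochondrial UMIs (unique molecules), and 9896 of those carried 1 hashtag. Classes were gated on UMIs of marker genes, none of them a member: 7910 singlets fell into 14 classes and 1986 (20.1%) into none. A class is called X-like from its markers. The surface tag of CD45, the pan-leukocyte protein, had a median of 1206.5 counts per monocyte-like cell, 133 per microglia-like cell and 16 per endothelial-like cell. Barcodes gated on 7 carcinoma markers are called Krt8-positive, since Krt8 made up 378 of their 383 CPM of these markers. They had a median of 84732 UMIs per barcode, far above the 4270 to 13109 of the 6 other classes compared here. Counts were summed per class and hashtag sample with at least 20 cells and are given as CPM, the count scaled to a common library total. Microglia-like cells reached that number in samples 5, 6, 7 and 8 (107, 103, 79 and 57 cells), monocyte-like and macrophage-like cells in samples 2, 3, 5, 6, 7 and 8, and endothelial-like cells in all but sample 1. All CPM intervals are exact Poisson intervals at 95% and cover counting error only.

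Microglia-like cells carried the highest levels of most members. The 31 genes together took 5.71, 4.11, 5.48 and 5.1% of all UMIs in microglia-like cells of samples 5, 6, 7 and 8. The share was lower in every monocyte-like sum (2.19 to 2.45%, n = 6), macrophage-like sum (1.75 to 2.12%, n = 6) and endothelial-like sum (1.24 to 1.88%, n = 7). It was 1.03 to 1.47% in NK cell-like cells (n = 4), 0.905 to 1.09% in CD8 T cell-like cells (n = 4) and 0.696 to 0.898% in Krt8-positive barcodes (n = 8). Neutrophil-like cells, with 26 cells in sample 5 and under 20 in every other sample, stood at 3.89%.

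The 5 groups of genes were spread differently. AP-1 factors took a median of 2.31% of UMIs in microglia-like cells, against 0.638% in monocyte-like, 0.615% in macrophage-like, 0.534% in endothelial-like and 0.112% in Krt8-positive barcodes. Heat shock genes took 0.275% in microglia-like cells, 0.289% in monocyte-like and 0.273% in CD8 T cell-like cells, and their highest median was the 0.463% of Krt8-positive barcodes. Among the 8 classes with 3 or more samples, microglia-like cells had the highest median CPM for 22 of the 31 members, and for 18 of these no sample of the next class overlapped. The 22 were all 6 AP-1 factors, 6 of 7 other transcription factors, 5 of 8 signalling feedback genes, 3 of 4 NF-kB feedback genes and 2 of 6 heat shock genes. Monocyte-like cells were highest for 5 members, Krt8-positive barcodes for 2 (Hspa8 and Hsp90aa1), and Krt8-positive barcodes were lowest for 18. These rankings were not made over all genes, so the counts cannot be set against a background share. They rest on CPM, that is on scaling by total UMIs. Compared with the scaling of the tests below, this moved all genes toward microglia-like cells, by a median of 0.34 (log2) against monocyte-like cells.

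**Figure D1:**
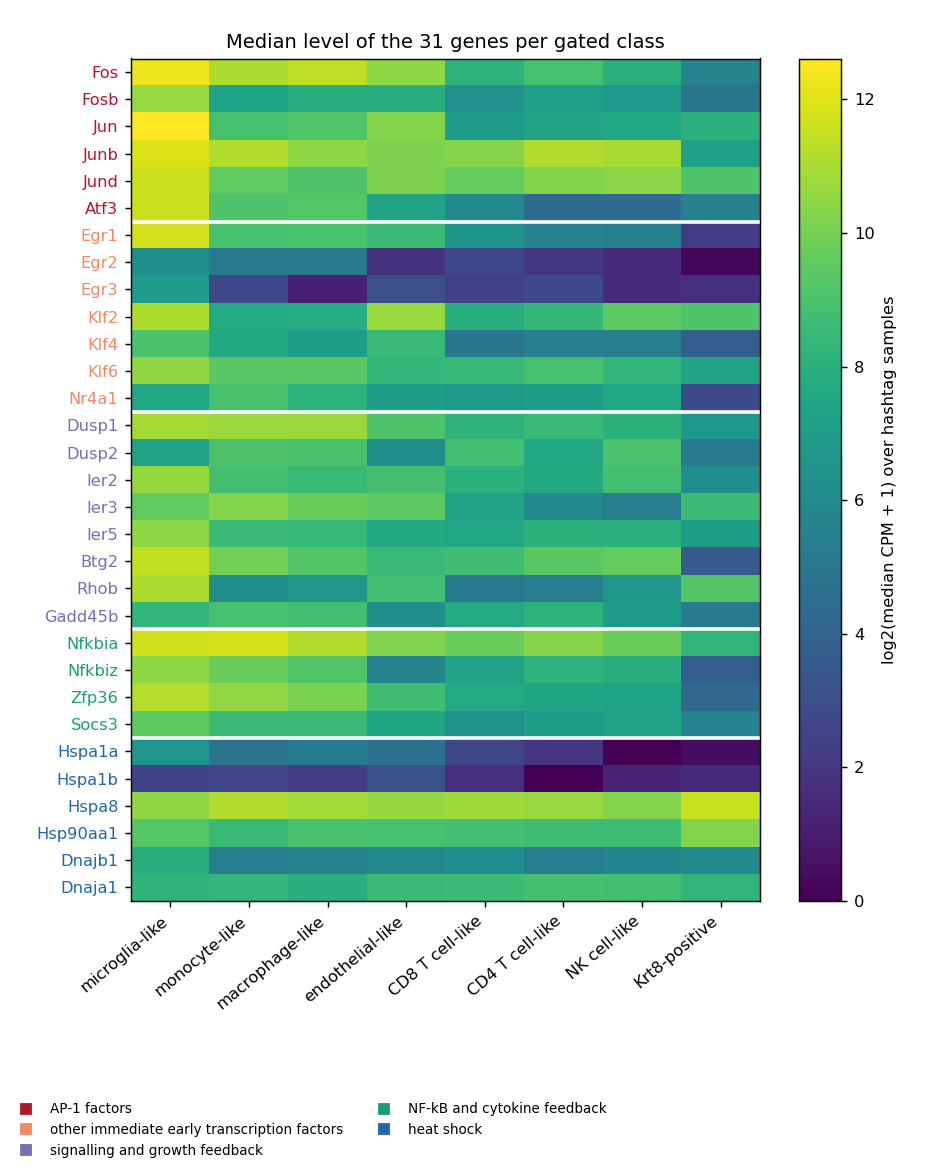
Median level of each gene (rows, coloured by group) in the 8 classes with 3 or more hashtag samples (columns), as log2(CPM + 1); levels are to be compared along a row. Microglia-like cells were highest in 22 of the 31 rows, and Krt8-positive barcodes in the rows of Hspa8 and Hsp90aa1.

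Within hashtag samples, microglia-like cells were set against monocyte-like cells with edgeR's quasi-likelihood test (n = 4 samples, Benjamini-Hochberg adjustment over 7415 genes). Of the 30 members tested, 22 were higher and 7 lower in microglia-like cells, and their median log2 difference was 0.83. Among all genes tested 32% were higher and 30.6% lower (62.5% called in either direction), with a median of 0.051. Against macrophage-like cells 22 of 30 members were higher and 4 lower in microglia-like cells (n = 4, median 1.08), where 26.8% of all 7636 genes were higher, 27.7% lower and 54.5% either. Macrophage-like cells, set against monocyte-like cells, were higher for 2 and lower for 15 of 29 members (n = 6, median -0.29), where 22% of 6737 genes were higher, 22.9% lower and 44.9% either. The comparisons share samples and classes, so they are not independent of each other. Hspa1b was filtered out of all 3 comparisons for low counts and Egr3 out of the last.

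**Figure D2:**
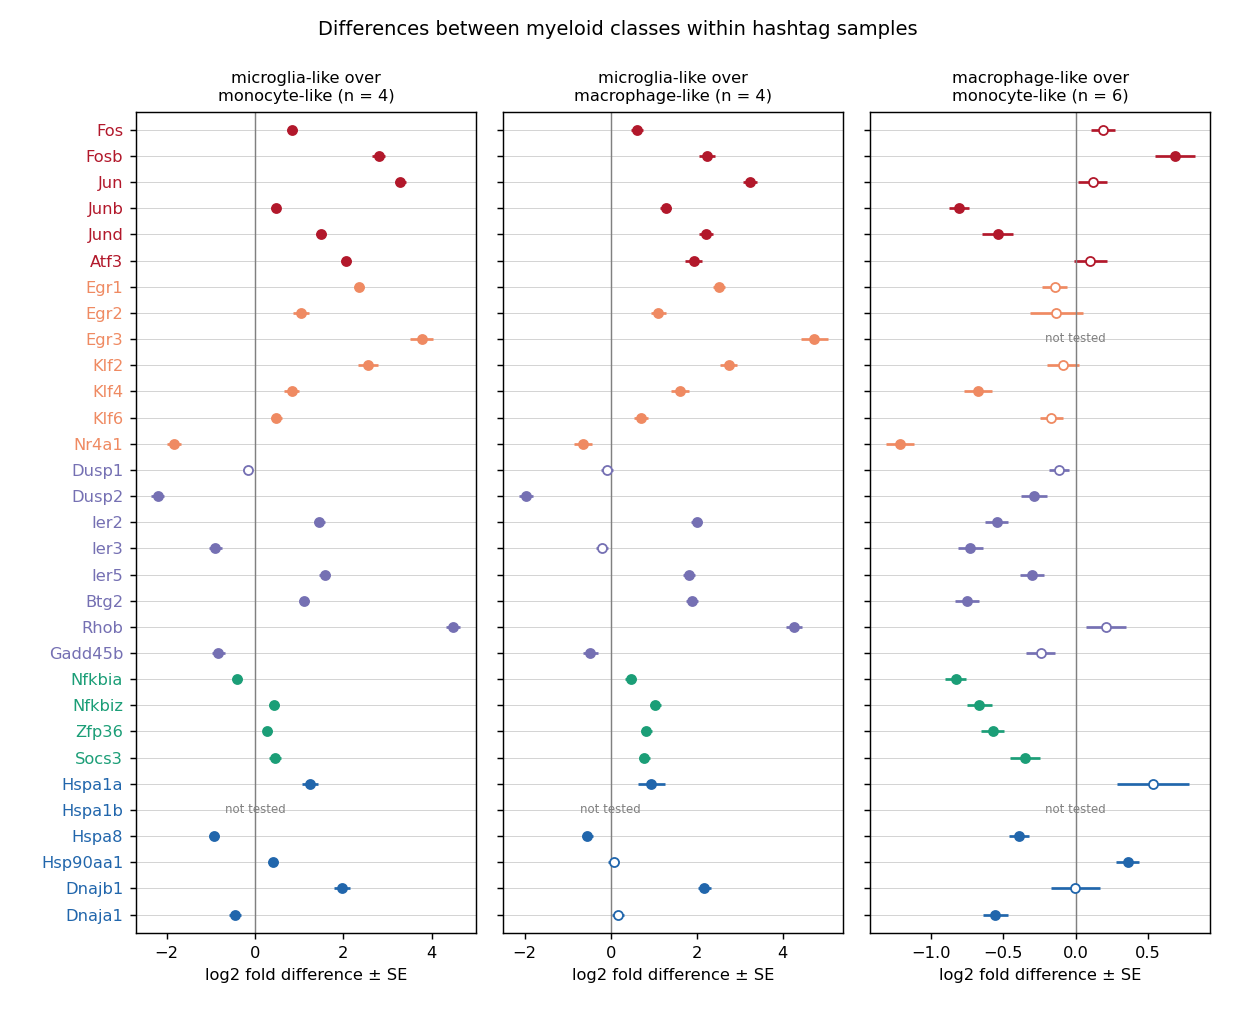
Log2 difference (x axis) of each member between myeloid-like classes, with its SE (bars); filled circles passed the adjusted 0.05 threshold and open ones did not. The AP-1 factors lie right of 0 in both panels on microglia-like cells, and Nr4a1 and Dusp2 lie left of it in all 3 panels.

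Depth, cell quality and other cell types' markers differed between these classes, and their part in the results was not tested. The median microglia-like cell had 7716 UMIs and 2.29% mitochondrial UMIs, the monocyte-like cell 9497 and 1.72%, and the macrophage-like cell 13109 and 1.12%. Hashtag doublets, which were left out, were 5.53% of all microglia-like, 9.33% of monocyte-like and 20.4% of macrophage-like barcodes. The summed monocyte markers (9 genes, none at 0) stood at 77.7 to 327 CPM in microglia-like samples and 10778 to 15712 CPM in monocyte-like samples. The summed microglia markers (10 genes, 1 of them at 0 in monocyte-like cells) stood at 103 to 124 CPM in monocyte-like and 8378 to 11469 CPM in microglia-like samples. The summed macrophage markers (8 genes, none at 0) stood at 21775 to 27500.2 CPM in microglia-like and 27729 to 47495 CPM in macrophage-like samples. In monocyte-like samples they stood at 4898 to 18911 CPM. The list holds Apoe, C1qa, C1qb and C1qc, which are not particular to macrophages, and the microglia-like gate set no limit on it. The sum was not split by gene, so it does not measure macrophage-like RNA in microglia-like cells. Scaling by total UMIs in place of TMM moved all genes toward microglia-like cells by a median of 0.34 (log2) against monocyte-like and 0.17 against macrophage-like cells. It moved them toward macrophage-like over monocyte-like cells by 0.13. Of all calls, 68.2, 61.1 and 65.1% were then on the higher side in these comparisons, against 51.1, 49.2 and 49%.

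All 6 AP-1 factors were higher in microglia-like than in monocyte-like and macrophage-like cells. Jun, which forms AP-1 dimers with FOS family proteins, stood at 7302, 4288, 6418 and 6104 CPM in microglia-like cells of samples 5, 6, 7 and 8. Its monocyte-like levels ran from 344 to 553 CPM (median 488) and its macrophage-like levels from 470.2 to 644 CPM (median 575). No sample of either class came near the lowest microglia-like sample, and Jun differed by 3.29 ± 0.12 (adjusted p = 9.50e-12) on the log2 scale from monocyte-like and 3.24 ± 0.17 (adjusted p = 3.52e-10) from macrophage-like cells, which is 9.81-fold and 9.42-fold. Endothelial-like cells were next, with 849.9 to 1508 CPM.

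Fos was the AP-1 factor with the smallest difference from macrophage-like cells. It stood at 5927, 3579, 5272 and 4654 CPM in microglia-like cells, from 1889.6 to 2350.01 CPM (median 2134) in monocyte-like and from 2179.6 to 3009 CPM (median 2697) in macrophage-like cells. Every microglia-like sample was above every sample of both other classes, which overlapped each other, and the log2 differences were 0.83 ± 0.12 (adjusted p = 1.60e-05) and 0.62 ± 0.15 (adjusted p = 0.00224). Fosb, a FOS relative, stood at 1935, 1151, 1701 and 1552 CPM in microglia-like cells, against 96.5 to 232 CPM in monocyte-like and 204 to 371 CPM in macrophage-like cells, a difference of 2.80 ± 0.14 (adjusted p = 2.84e-10) and 2.24 ± 0.18 (adjusted p = 4.10e-08). Fosb was also one of the 2 members that were higher in macrophage-like than in monocyte-like cells, by 0.69 ± 0.14 (adjusted p = 7.00e-04) and in 6 of 6 samples, a call that was lost under another hashtag rule (adjusted p = 0.0509).

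Junb and Jund are JUN relatives. Junb stood at 4585, 3551, 4252 and 3726 CPM in microglia-like cells and from 2159 to 2532 CPM (median 2306) in monocyte-like cells, a log2 difference of 0.47 ± 0.10 (adjusted p = 0.00101), and at 1292 to 1687 CPM in macrophage-like cells. Jund stood at 3611, 2204, 3526 and 2626 CPM against 607 to 987 CPM and 508 to 621 CPM, and differed by 1.49 ± 0.12 (adjusted p = 3.37e-08) and 2.22 ± 0.16 (adjusted p = 1.21e-08). Both were lower in macrophage-like than in monocyte-like cells, by log2 differences of -0.81 ± 0.07 and -0.54 ± 0.11.

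Atf3, a stress-induced factor that can dimerise with JUN, stood at 2985, 1514, 3128 and 3211 CPM in microglia-like cells. Sample 6 was well below the other 3, and all 4 were above the monocyte-like samples (317 to 587 CPM). Atf3 differed by 2.06 ± 0.11 (adjusted p = 7.22e-10) from monocyte-like and 1.93 ± 0.19 (adjusted p = 3.49e-07) from macrophage-like cells, and by 2.22 from the latter without sample 6. In monocyte-like cells, too, sample 6 was lowest, with 317 CPM against 546 CPM in the next.

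Among the other transcription factors, 6 of 7 were higher in microglia-like cells in both comparisons and Nr4a1 was lower. Egr1, a zinc finger factor downstream of MAP kinase signalling, stood at 3621, 2749, 3586 and 3244 CPM in microglia-like cells. Levels ran from 280.1 to 591 CPM (median 493) in monocyte-like and from 235 to 650.4 CPM (median 529) in macrophage-like cells. Its differences were 2.36 ± 0.12 (adjusted p = 2.75e-10) and 2.52 ± 0.14 (adjusted p = 9.30e-10). Every microglia-like sample was above all others, while monocyte-like and macrophage-like samples overlapped. The relatives Egr2 and Egr3 were counted far less often. Egr3 gave 108, 48.5, 130.4 and 132 CPM in microglia-like cells against at most 9.99 CPM in monocyte-like and 11.2 CPM in macrophage-like samples, and differed by 3.78 ± 0.26 (adjusted p = 9.86e-09) from the former. Egr2 gave 109, 61.2, 93.0 and 50.5 CPM against 17.3 to 41.2 CPM, a difference of 1.05 ± 0.18 (adjusted p = 1.15e-04).

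Klf2, a factor known for quiescence of endothelium and T cells, stood at 2123, 874, 2181 and 2357 CPM in microglia-like cells. Sample 6 was well below the other 3 samples. Monocyte-like cells held 204 to 271 CPM, and the difference was 2.57 ± 0.22 (adjusted p = 1.21e-07) with sample 6 and 2.90 without it. Endothelial-like cells overlapped the microglia-like samples, with 1107 to 1873 CPM. Klf4 (751, 313, 506 and 498 CPM) and Klf6 (1398, 857, 1537 and 1554 CPM) differed from monocyte-like cells by 0.83 ± 0.18 and 0.48 ± 0.12, both past the threshold. The call for Klf4 was lost when sums of at least 10 cells were used (adjusted p = 0.0597).

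Nr4a1, a nuclear receptor induced by antigen receptor and inflammatory signals, ran the other way. It stood at 180.2, 139.8, 194 and 263 CPM in microglia-like cells, from 489 to 662 CPM (median 513) in monocyte-like cells and from 167 to 337 CPM (median 279) in macrophage-like cells. Every monocyte-like sample was above every microglia-like and macrophage-like sample. Nr4a1 was lower than in monocyte-like cells by a log2 difference of -1.83 ± 0.15 (adjusted p = 7.28e-08) in microglia-like and -1.22 ± 0.10 (adjusted p = 3.50e-08) in macrophage-like cells. The smaller difference between microglia-like and macrophage-like cells, -0.64 ± 0.21 (adjusted p = 0.0156), was lost under DESeq2, with scaling by total UMIs and without sample 5, 6 or 7 (without a sample, adjusted p up to 0.136).

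Of the 8 signalling feedback genes, 4 were higher and 3 lower in microglia-like than in monocyte-like cells. Rhob, a small GTPase of the actin and endosome machinery, had the largest log2 difference of the 30 members tested against monocyte-like cells, with 2335, 1503, 2360.4 and 1974 CPM in microglia-like cells against 61.0 to 111 CPM (median 77.2) in monocyte-like cells. That is a log2 difference of 4.48 ± 0.17 (adjusted p = 1.79e-11), or 22.4-fold, and 4.26 ± 0.19 (adjusted p = 8.06e-11) against macrophage-like cells. Btg2, an antiproliferative gene, stood at 2949.8, 1905, 2781 and 2746 CPM in microglia-like and 819 to 1091 CPM in monocyte-like cells (1.11 ± 0.12). Ier2 and Ier5, nuclear proteins of the immediate early response, stood at 1674, 1551, 1637 and 1516 CPM and 1698, 1149.6, 1532 and 1297 CPM, and differed from monocyte-like cells by 1.46 ± 0.12 and 1.58 ± 0.13. All 4 were higher in 4 of 4 samples in both comparisons.

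Dusp2, a phosphatase of MAP kinases that is found mainly in leukocytes, was lower in microglia-like cells, with 153, 181, 148 and 115 CPM against 482 to 637 CPM (median 539.97) in monocyte-like cells (log2 difference -2.20 ± 0.15, adjusted p = 5.66e-09). Gadd45b and Ier3, genes of stress and survival signalling, were lower than in monocyte-like cells by log2 differences of -0.83 ± 0.15 and -0.90 ± 0.15. For Ier3 the samples overlapped: microglia-like cells held 739.97, 810.4, 749 and 529 CPM, and monocyte-like cells of samples 5, 6, 7 and 8 held 1275, 1613, 727 and 731 CPM. Microglia-like cells were lower for Ier3 in samples 5, 6 and 8 and slightly higher in sample 7. Dusp1, the phosphatase with the best known role in ending p38 and JNK signals, stood at 2061, 1651, 1875 and 2002 CPM in microglia-like and from 1573 to 1769.6 CPM (median 1676) in monocyte-like cells. It did not pass (log2 difference -0.17 ± 0.11, adjusted p = 0.205), and with every cell thinned to 2000 UMIs it was higher in microglia-like cells, by 0.30 (adjusted p = 0.0287). The calls for Gadd45b and Dnaja1 were lost with the same thinning. Against macrophage-like cells Gadd45b differed by -0.47 ± 0.18 (adjusted p = 0.0352), a call that was lost under 9 of the alternatives, among them DESeq2 and no replicate block.

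All 4 NF-kB and cytokine feedback genes were lower in macrophage-like cells than in both other myeloid classes. Nfkbia stood at 3317, 4072, 3366 and 3179.8 CPM in microglia-like cells, from 2951 to 4001 CPM (median 3593) in monocyte-like cells and from 1720.1 to 2673 CPM (median 2209) in macrophage-like cells. Microglia-like and monocyte-like samples overlapped, and every macrophage-like sample was below both. All 4 genes were lower in macrophage-like than in monocyte-like cells: Nfkbia by a log2 difference of -0.83 ± 0.07 (adjusted p = 1.01e-07), Nfkbiz, an atypical I kappa B protein, by -0.67 ± 0.08, Zfp36 by -0.58 ± 0.08 and Socs3 by -0.35 ± 0.10. Socs3 did not hold that call without the replicate block, with scaling by total UMIs, in barcodes of at most 30000 UMIs or after thinning.

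Against monocyte-like cells, 3 of these genes were higher and 1 lower in microglia-like cells, each by less than a log2 unit. Nfkbiz stood at 1348, 1323, 1478 and 1441 CPM against 661 to 879.6 CPM, Zfp36 at 2504, 1859, 2367 and 2341 CPM against 1275 to 1542 CPM and Socs3 at 737, 717, 808 and 639 CPM against 280.1 to 485 CPM. For each of the 3, no microglia-like sample overlapped a monocyte-like one in CPM. In the fit they were higher by 0.44 ± 0.11 (adjusted p = 0.0037), 0.28 ± 0.11 (adjusted p = 0.0305) and 0.46 ± 0.14 (adjusted p = 0.0102), and Nfkbia was lower by a log2 difference of -0.40 ± 0.12 (adjusted p = 0.0082). Each of these 4 calls was lost in at least 1 alternative, among them DESeq2 for Zfp36 and Socs3, no filter on low counts for Nfkbiz, Zfp36 and Socs3, and leaving out sample 5 for Nfkbia, Zfp36 and Socs3. Scaling by total UMIs also ended the call for Nfkbia.

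Of the 5 heat shock genes tested against monocyte-like cells, 3 were higher and 2 lower in microglia-like cells. Dnajb1, a stress-induced HSP40 that loads clients onto HSP70, stood at 262, 225, 180.4 and 245 CPM in microglia-like cells against 33.8 to 61.7 CPM (median 40.9) in monocyte-like and from 37.9 to 59.8 CPM (median 48.1) in macrophage-like cells. It differed by 1.97 ± 0.17 (adjusted p = 1.47e-07) and 2.18 ± 0.15 (adjusted p = 8.49e-09). Hspa1a, the stress-induced HSP70, stood at 114, 74.7, 129 and 83.5 CPM in microglia-like and 21.1, 17.8, 24.2, 32.2, 45.6 and 33.9 CPM in monocyte-like cells of samples 2, 3, 5, 6, 7 and 8, a difference of 1.24 ± 0.18 (adjusted p = 2.65e-05). Hspa1b was scarce in both, at 2.78 to 8.7 CPM and 2.63 to 9.49 CPM.

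Hspa8, Hsp90aa1 and Dnaja1 showed no common direction. Hspa8 was lower in microglia-like cells, at 1479.9, 1497, 1395 and 1639 CPM against 1619 to 2705 CPM (median 2186) in monocyte-like cells (log2 difference -0.92 ± 0.12, adjusted p = 6.55e-06), and was lower in 4 of 4 samples. Hsp90aa1 was higher than in monocyte-like cells, at 562, 535, 677 and 705 CPM against 298 to 424 CPM (log2 difference 0.41 ± 0.12, adjusted p = 0.00658), and differed from macrophage-like cells by 0.07 ± 0.13 (adjusted p = 0.685), which did not pass. Dnaja1, an HSP40 partner of HSPA8, was lower than in monocyte-like cells by a log2 difference of -0.44 ± 0.14 (adjusted p = 0.0112), although 2 of 4 samples went each way in CPM. That call was lost without sample 7 or 8 and with scaling by total UMIs, and that of Hsp90aa1 was lost under DESeq2 and with no filter on low counts.

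In macrophage-like cells Hspa1a stood at 34.5, 37.7, 30.8, 37.8, 21.1 and 106 CPM in samples 2, 3, 5, 6, 7 and 8. Sample 8 stood apart above the other 5. A single barcode of sample 8, out of 100, held 120 of the 182 Hspa1a UMIs and 48 of the 67 Hspa1b UMIs. It carried 67008 UMIs in all, against a median of 14171 in macrophage-like cells of that sample, with 172 Hspa8 UMIs against a median of 28. Without it the Hspa1a level of sample 8 was 37.5 CPM. This barcode was singled out after the sums had been seen. The difference in Hspa1a between microglia-like and macrophage-like cells was 0.95 ± 0.31 (adjusted p = 0.0158), in 3 of 4 samples, and was lost without sample 5 or 7, under DESeq2 and without the replicate block.

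**Figure D3:**
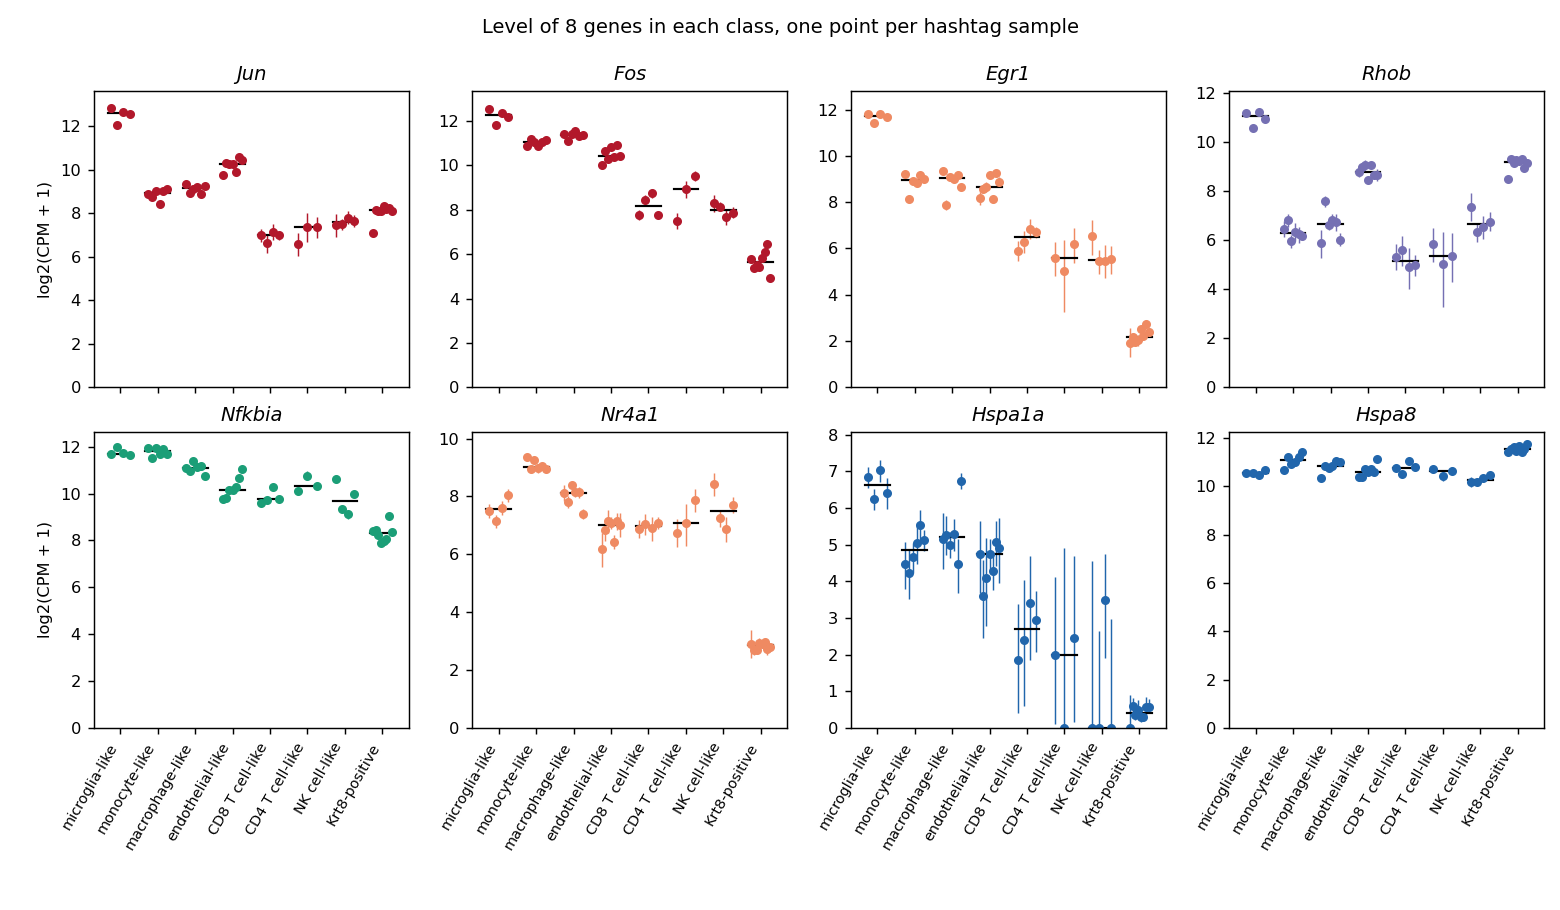
Level of 8 members as log2(CPM + 1) in each hashtag sample (points, with exact Poisson 95% intervals) of 8 classes, with the class median as a bar. Microglia-like samples stand above all others for Jun, Fos, Egr1 and Rhob, overlap monocyte-like samples for Nfkbia, lie below them for Nr4a1, and 1 macrophage-like sample of Hspa1a stands apart at 106 CPM.

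Macrophage-like cells were lower than monocyte-like cells for 15 members. The largest differences were those of Nr4a1 and Nfkbia and of Junb, and the next were Btg2 (log2 difference -0.75 ± 0.08, adjusted p = 1.03e-06), Ier3 (log2 difference -0.73 ± 0.09, adjusted p = 3.24e-06) and Klf4 (log2 difference -0.68 ± 0.10, adjusted p = 2.53e-05). Ier3 stood at 892, 771, 943, 992, 648 and 408 CPM in macrophage-like and 1527, 1209.6, 1275, 1613, 727 and 731 CPM in monocyte-like cells of samples 2, 3, 5, 6, 7 and 8, and was lower in each of them. Fos and Jun did not pass (0.19 ± 0.09 and 0.12 ± 0.10), nor did Egr1 (-0.15 ± 0.09). Hsp90aa1 was the other member that was higher, by 0.36 ± 0.08 (adjusted p = 0.00184) and in 6 of 6 samples, while Hspa8 was lower by a log2 difference of -0.39 ± 0.07 (adjusted p = 1.91e-04) in 6 of 6. With thinning, the calls for Klf4 (log2 difference -0.27, adjusted p = 0.202) and Ier5 (-0.14, adjusted p = 0.43) were lost. Dusp2 and Socs3 changed sign (0.036 and 0.026) and no longer passed.

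Wider lists of the same pathways were counted beside the members. Of 20 tested wider immediate early genes, 5 were higher and 9 lower in microglia-like than in monocyte-like cells. Among all genes tested there, 32% were higher, 30.6% lower and 62.5% either. Nr4a2 (-4.44 ± 0.34), Fosl2 (-2.72 ± 0.16) and Dusp5 (-2.69 ± 0.21) were lower, and Zfp36l1 (1.91 ± 0.14) was higher. Of 10 wider NF-kB feedback genes 1 was higher and 6 lower, led by Traf1 (-3.98 ± 0.25), a signalling adaptor of the TNF receptor family. Of 15 wider heat shock genes 6 were higher and 1 lower, led by Dnajb4 (1.85 ± 0.19), another HSP40. All 12 interferon-stimulated genes of the reference list were lower in microglia-like than in monocyte-like and in macrophage-like cells. Among all genes tested 30.6% and 27.7% were lower in these 2 comparisons. The median log2 difference of the list was -2.50 and -1.47, and Isg15 differed by -3.10 ± 0.16 and -1.95 ± 0.15.

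Macrophage-like cells were set against monocyte-like cells for the same lists. Of 20 wider immediate early genes 3 were higher and 16 lower, led by Fosl2 (-1.69 ± 0.12) and Nr4a2 (-1.62 ± 0.16). Among all genes tested there, 22% were higher, 22.9% lower and 44.9% either. Of 10 wider NF-kB feedback genes 8 were lower, with Traf1 at -1.45 ± 0.11 and Nfkb1, an NF-kB subunit gene, at -1.12 ± 0.11. Of 15 wider heat shock genes 8 were higher and 2 lower, with Hsph1 (0.95 ± 0.17), Hspe1 (0.70 ± 0.08) and Ahsa1 (0.68 ± 0.11) higher. Against macrophage-like cells, microglia-like cells were higher for 10 and lower for 5 of 20 wider immediate early genes, and higher for 4 and lower for 4 of 10 wider NF-kB feedback genes. They were higher for 3 and lower for 4 of 15 wider heat shock genes. Among all genes tested in that comparison 26.8% were higher, 27.7% lower and 54.5% either.

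Endothelial-like cells were compared with Krt8-positive barcodes in 7 samples. Of 30 members tested, 26 were higher and 3 lower in endothelial-like cells (median log2 difference 1.72), where 34.3% of all 11939 genes were higher, 35.8% lower and 70.1% either. Egr2 was filtered out. The summed microglia markers (10 genes, of which 1 was at 0 in endothelial-like and none in Krt8-positive cells) stood at 2012 to 3787 CPM in endothelial-like and 493 to 743 CPM in Krt8-positive sums. Of this, Sparc, a matrix protein gene that endothelium also expresses, made up 1999 to 3770.2 CPM in endothelial-like sums, and the other 9 markers 7.95 to 18.8 CPM, against 6421 to 8727 CPM in microglia-like sums. Fos stood from 1024 to 1919.6 CPM (median 1395) in endothelial-like cells and from 29.1 to 88.3 CPM (median 49.3) in Krt8-positive barcodes, a log2 difference of 4.78 ± 0.14 (adjusted p = 3.82e-15). Egr1 stood from 276 to 614 CPM (median 403) against 2.8 to 5.68 CPM (median 3.55), a difference of 6.65 ± 0.13 (adjusted p = 1.00e-17), the widest of any member. Klf4 (4.81 ± 0.14), Btg2 (4.98 ± 0.12), Zfp36 (4.32 ± 0.14) and Nr4a1 (4.16 ± 0.14) also differed by more than 4 log2 units, and all were higher in 7 of 7 samples. The levels of Klf2 were 1107 to 1873 CPM and 375 to 667 CPM, and its difference was 1.35 ± 0.11.

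The heat shock members of this comparison went both ways. Hspa1a stood from 11.1 to 32.7 CPM (median 25.7) in endothelial-like cells and at 0 to 0.518 CPM in Krt8-positive barcodes (log2 difference 5.90 ± 0.31, adjusted p = 1.17e-11). Hspa8 and Hsp90aa1 were lower in endothelial-like cells, by log2 differences of -1.01 ± 0.09 and -1.28 ± 0.11. Hspa8 stood at 1315 to 2209 CPM (median 1549) against 2719.8 to 3461 CPM (median 3003). Hsp90aa1 stood at 434 to 692 CPM (median 493) against 820.3 to 1708 CPM (median 1229). In sample 8 a single endothelial-like barcode held 43.1% of the Hspa8 and 55.7% of the Hsp90aa1 UMIs. Of 17 wider heat shock genes 13 were lower and 1 was higher in endothelial-like cells: Hspb1, a small heat shock protein, by 9.88 ± 0.17 (adjusted p = 3.93e-18). Among all genes tested there, 35.8% were lower and 34.3% higher. Rhob was lower by a log2 difference of -0.45 ± 0.09, but stood at 0.027 (adjusted p = 0.828) once every cell was thinned to 2000 UMIs. The median endothelial-like cell had 6730 UMIs and the median Krt8-positive barcode 84732, and the part of this depth gap in the differences was not tested beyond the thinning, under which 22 members were higher and 2 lower.

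In CD8 T cell-like against NK cell-like cells, 5 of 27 tested members were higher and 8 lower in the former (n = 3 samples, median -0.33). Among all 6092 genes 7.16% were higher, 7.85% lower and 15% either. Ier3 stood at 104, 199 and 118 CPM in CD8 T cell-like and 35.6, 43.3 and 24.4 CPM in NK cell-like cells of samples 5, 7 and 8, a log2 difference of 1.95 ± 0.22 (adjusted p = 7.86e-06). Gadd45b (1.00 ± 0.17), Atf3 (1.64 ± 0.35), Egr1 (0.97 ± 0.22) and Hspa8 (0.49 ± 0.11) were higher as well. Markers of myeloid cells were also higher in CD8 T cell-like cells, and their part in these differences was not tested. The summed monocyte markers (9 genes, none at 0) stood at 2237 to 3165 CPM in CD8 T cell-like against 1337 to 1672 CPM in NK cell-like sums, and the summed macrophage markers (8 genes, none at 0) at 828 to 2303 CPM against 155 to 432 CPM. Hashtag doublets, left out of the sums, were 9.17% of CD8 T cell-like and 1.27% of NK cell-like barcodes. Atf3 in CD8 T cell-like cells of sample 7 was 131 CPM in the sum and 41.0 CPM as the mean over cells. NK cell-like cells were higher for Klf2, at 759.7, 608 and 911 CPM against 367, 264 and 145 CPM (log2 difference -1.66 ± 0.24, adjusted p = 1.06e-04).

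Rhob (-1.51 ± 0.23), Socs3 (-0.92 ± 0.17), Btg2 (-0.86 ± 0.13), Jund (-0.68 ± 0.11), Jun (-0.64 ± 0.15), Junb (-0.62 ± 0.12) and Ier2 (-0.68 ± 0.16) were also lower in CD8 T cell-like cells. Fos and Nfkbia did not pass (0.14 ± 0.21 and 0.37 ± 0.19). Under DESeq2 the counts were 2 higher and 5 lower, and with sums of at least 10 cells 1 and 5. Of the 13 called members, 5 kept their call in every alternative that tested them: Ier3, Klf2, Rhob, Btg2 and Jund. Under DESeq2 the calls for Atf3, Egr1, Hspa8, Ier2, Jun and Socs3 were lost, with adjusted p from 0.0702 to 0.381. With sums of at least 10 cells those for Atf3, Egr1, Gadd45b, Hspa8, Ier2, Junb and Socs3 were lost, and Egr1 was also lost with thinning (adjusted p = 0.42). Leaving out sample 8 ended the calls for Egr1, Ier2 and Jun, and leaving out sample 7 that for Hspa8. The interferon-stimulated list had 7 of 12 genes higher in CD8 T cell-like cells, led by Ifi27l2a (log2 difference 3.95 ± 0.14, adjusted p = 2.37e-11). Among all genes tested 7.16% were higher.

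**Figure D4:**
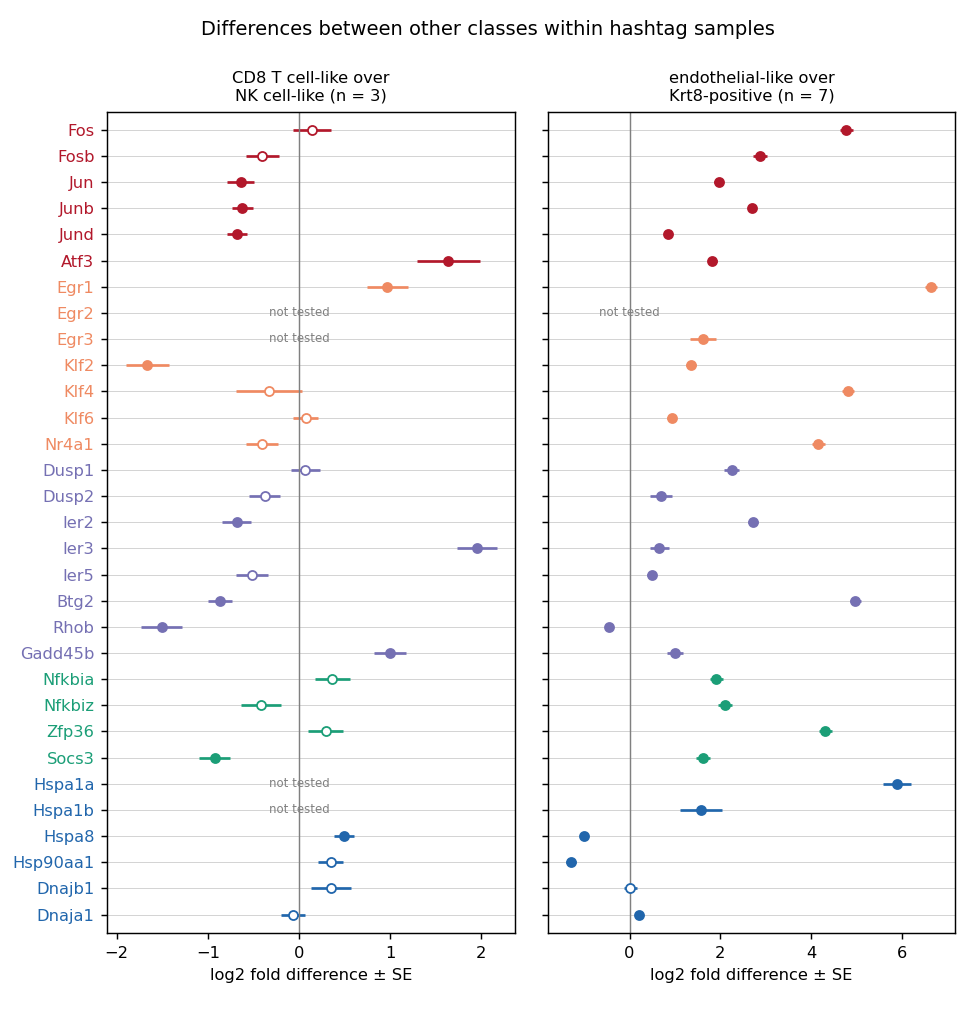
Log2 difference (x axis) of each member, with its SE (bars), for CD8 T cell-like over NK cell-like cells and endothelial-like cells over Krt8-positive barcodes; filled circles passed the adjusted 0.05 threshold. In the right panel only Rhob, Hspa8 and Hsp90aa1 lie clearly left of 0.

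Classes with few cells are given as single values of sample 5. Neutrophil-like cells (26 cells) held 8745 CPM of Nfkbia (95% interval 8154 to 9367), 3223 of Zfp36, 3083 of Dusp1 and 4233 of Junb, against 3317, 2504, 2061 and 4585 in microglia-like cells of the same sample. Their Hspa1a and Dnajb1 counts were 0 of 93084 UMIs, for which a limit of 3 counts gives up to 32.2 CPM and the upper bound of the exact Poisson interval is 39.6 CPM. Mature dendritic cell-like cells held 1277 CPM of Gadd45b and 1073 of Klf6, a regulator of growth arrest. Neither was the highest in sample 5: neutrophil-like cells held 1880 and 580 CPM of these genes, and microglia-like cells 267 and 1398 CPM. There is no replicate of these classes and no test. Regulatory T cell-like cells, with samples 5 and 8, held 2031 and 1680.2 CPM of Nfkbia, and conventional CD4 T cell-like cells of samples 5, 7 and 8 held 1091, 1737 and 1301 CPM.

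Shares of cells with a UMI, after thinning each cell to 2000 UMIs, showed how widespread the transcripts were. The median share of microglia-like cells with a Fos UMI was 97.1% over samples (range 94.6 to 98.7%). It was 95.7% in macrophage-like, 86.8% in monocyte-like and 70.0% in endothelial-like cells. In CD8 T cell-like cells and Krt8-positive barcodes the share was 17.5% and 8.11%. Unthinned, it was 98.1% in microglia-like cells and 76.1% in Krt8-positive barcodes. Thinning left out 5 of 385 microglia-like cells with under 2000 UMIs and 0 of 4485 Krt8-positive barcodes. Egr1 was found in 93.8% of microglia-like, 48.6% of monocyte-like and 0.689% of Krt8-positive cells. The last value was measured at the same depth and includes any UMIs from free RNA.

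Hspa1a was found in 18.0% of microglia-like, 8.51% of endothelial-like, 4.42% of monocyte-like and 0.0677% of Krt8-positive cells. Dnajb1 was found in 36.2%, 13.8%, 4.81% and 11.1%. Rhob reached 90.7% of microglia-like but 15.7% of monocyte-like cells, and Nr4a1 21.5% but 51.1%.

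Cells of a class differed widely in their summed AP-1 UMIs. At 2000 UMIs per cell, the median microglia-like cell of samples 5, 6, 7 and 8 held 56, 39, 55 and 45.5 AP-1 UMIs, and the extremes were 0 and 152. In sample 5 the quartiles were 36 and 80. The median monocyte-like cell held 11 to 13 AP-1 UMIs over samples, and the median Krt8-positive barcode 1 to 2. Endothelial-like cells had medians of 9 to 10 with cells up to 138. Heat shock UMIs per microglia-like cell had medians of 4 to 5.

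Across cells of 1 hashtag sample, the sums of the immediate early groups correlated with each other more than with the heat shock sum. Correlations were taken on log2(summed UMIs + 1) at 2000 UMIs per cell, in samples with at least 50 cells. Points are cells of 1 library and have equal depth, but they share a fixed total, and no p-value is given. In microglia-like cells the AP-1 sum correlated with the other transcription factors at a median r of 0.77 over 4 samples (0.67 to 0.86), with signalling feedback at 0.83 (0.75 to 0.90) and with NF-kB feedback at 0.71 (0.58 to 0.75). With the heat shock sum it was 0.13 (0.06 to 0.26). Most of that sum was Hspa8 and Hsp90aa1, at 1479.9 and 562 CPM in microglia-like cells of sample 5. Hspa1a, Dnajb1 and Dnaja1 stood there at 114, 262 and 297 CPM. A sum of the stress-induced genes alone was not correlated, so the value does not tell whether those genes moved with AP-1. Among the gene pairs computed in microglia-like cells, the highest median r was that of Fos and Jun, at 0.70 (0.50 to 0.73).

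In the other classes given here, the median correlation of the AP-1 sum with NF-kB feedback was smaller than in microglia-like cells. Single gene pairs went both ways between microglia-like and endothelial-like cells. Fos and Egr1 had a median r of 0.69 in endothelial-like and 0.52 in microglia-like cells, and Fos and Jun 0.54 and 0.70. In endothelial-like cells (3 samples) the AP-1 sum correlated with NF-kB feedback at 0.64 and with heat shock genes at -0.22 (-0.23 to 0.09). In macrophage-like cells (3 samples) these were 0.64 and 0.04, and in monocyte-like cells (6 samples) 0.48 and 0.01. CD8 T cell-like cells (4 samples) gave 0.34 and -0.02, and Krt8-positive barcodes (8 samples) 0.14 and -0.00. NF-kB feedback and heat shock sums correlated at 0.11 in microglia-like and 0.06 in monocyte-like cells. Heat shock UMIs were few per cell, but they were not the sparsest group in every class. In CD8 T cell-like cells their median was 4 to 5 UMIs over samples, and that of NF-kB feedback was 1. The part of sparse counts in these values was not tested, and no conclusion is drawn from the weak correlations. Interferon-stimulated UMIs ran against the AP-1 sum in microglia-like cells, at -0.47 (-0.59 to -0.22), and at 0.20 in monocyte-like cells.

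Total depth and mitochondrial share ran against the AP-1 sum in most but not all samples of microglia-like cells, and their part was not tested. The thinned AP-1 sum correlated with log2 total UMIs at -0.18, -0.42, -0.75 and 0.056 in samples 5, 6, 7 and 8. With the mitochondrial share it was -0.30, -0.049, -0.32 and -0.20. In monocyte-like cells the correlation with depth lay between -0.05 and 0.25, and in macrophage-like cells between -0.02 and 0.03. Endothelial-like cells of samples 5, 6 and 7 gave -0.23, -0.35 and -0.26. NK cell-like cells of samples 5, 7 and 8 gave -0.13, -0.32 and -0.35, so a negative correlation with depth was not particular to microglia-like cells. The values of AP-1 against NF-kB feedback were 0.709 in microglia-like cells of at most 30000 UMIs and 0.704 in those without a Krt8 UMI.

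**Figure D5:**
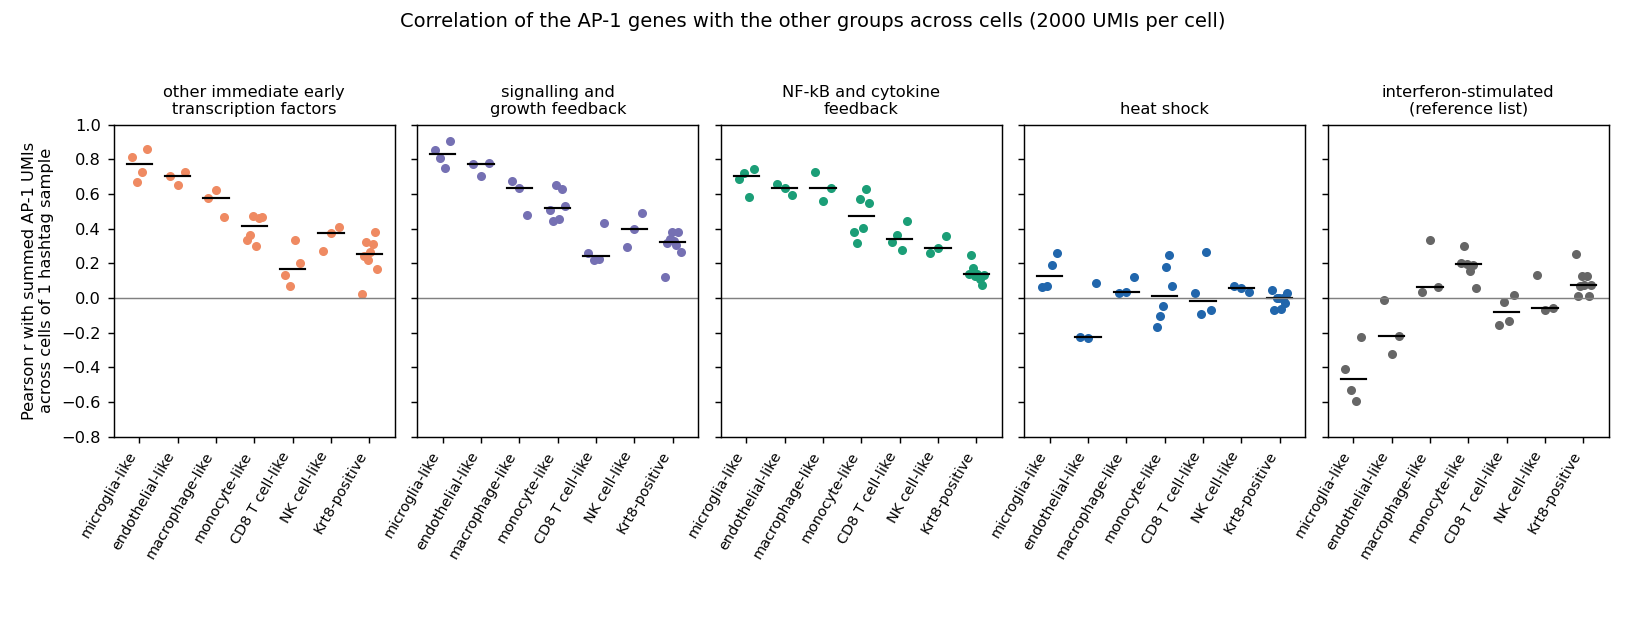
Pearson r across cells (y axis) between the summed AP-1 UMIs and the summed UMIs of 4 other member groups and of the interferon-stimulated reference list, at 2000 UMIs per cell; each point is 1 hashtag sample with at least 50 cells and bars are medians. In microglia-like cells the medians are 0.77, 0.83 and 0.71 for the first 3 panels, 0.13 for heat shock and -0.47 for interferon-stimulated genes.

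Sample 6 had the lowest microglia-like level of 21 of the 31 members, among them all 6 AP-1 factors and 6 of 7 other transcription factors. How many of all genes were lowest in sample 6 was not counted, so this count cannot be read as particular to the members. The AP-1 share of UMIs in sample 6 was 1.63%, against 2.63, 2.43 and 2.19% in samples 5, 7 and 8. Its NF-kB feedback share was 0.797%, against 0.791, 0.802 and 0.76%, and Nfkbia was highest in it. The median microglia-like cell of sample 6 had 8949 UMIs and 2.75% mitochondrial UMIs, the highest of the 4 samples, and the summed microglia markers stood at 8378 CPM, the lowest. The part of these measures in the levels was not tested. Without sample 6, 22 members were higher and 7 lower against monocyte-like cells, the same counts as with it.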

How the data were processed

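Transcripts, antibody tags and hashtags were measured in 1 capture. The deposited matrix holds UMI counts per feature and barcode, as whole numbers. Cell Ranger 3.1, Seurat 3.1.1 and build mm10 are named in the submitters' processing notes. Barcodes under 500 genes or over 15% mitochondrial UMIs were left out. HTODemux (Seurat 5.3.0, quantile 0.99) gave 9896 singlets, 1712 doublets and 726 negatives. Doublets and negatives were left out, and Scrublet (scanpy 1.11.5) marked 1.29% of singlets, left out only in an alternative.

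Classes were gated on summed marker UMIs per 10000 UMIs, with thresholds set after the data had been seen. Counts were summed per class and hashtag sample with at least 20 cells and tested with edgeR 4.0.16 (quasi-likelihood, TMM, filterByExpr, hashtag as replicate block, R 4.3.3), with Benjamini-Hochberg adjustment at 0.05. Errors after ± are standard errors from the fit. The script was tested on simulated data. The block rests on classes coming from the same suspension. The deviations of same-numbered sums correlated at 0.012 to 0.168 for microglia-like against monocyte-like cells, 0.025 to 0.395 for macrophage-like against monocyte-like, -0.02 to 0.151 for microglia-like against macrophage-like, -0.049 to 0.072 for CD8 T cell-like against NK cell-like and -0.027 to 0.096 for endothelial-like cells against Krt8-positive barcodes.

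All 31 members could be named. Of each wider list, at most 4 genes were named, by the largest log2 difference among those past the threshold. The members and lists were chosen with earlier results of these data known. Alternatives covered the block, DESeq2 1.42.0, the filter, each hashtag sample, cell minimums, the gate, depth, hashtag calling, the mitochondrial limit and Scrublet. Scaling by total UMIs, and correlations without deep barcodes or barcodes with a Krt8 UMI, were added after seeing the data. Treatment was not analysed here, since no label links it to a hashtag.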

Additional observations from a re-analysis of the deposited data

Results flagged for a closer look

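In 217 series of a member's levels over 4 to 8 hashtag samples of a class, 21 had a highest or lowest sample set apart from the rest by Dixon's criterion, in 17 genes. For independent series with equal, normal spread, chance would give about 1 in 20. These series share cells and samples and differ in counting error, so the count cannot be set against that rate. In microglia-like cells, sample 6 was low for Atf3 (1514 CPM against 2985 to 3211 CPM in the others) and Klf2 (874 against 2123 to 2357 CPM), and sample 7 was high for Dnaja1 (398 against 285 to 298 CPM). In monocyte-like cells, sample 6 was low for Atf3 (317 against 546 to 587 CPM).

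In macrophage-like cells, Egr3 stood at 11.2 CPM in sample 7, from 8 UMIs, against 0 to 3.32 CPM in the others. Ier5 stood at 289.8 CPM in sample 3 against 341 to 363 CPM, and Gadd45b at 719 CPM in sample 2 against 346 to 457 CPM. Hspa1a stood at 106 CPM in sample 8 against 21.1 to 37.8 CPM, and Hspa1b at 38.9 CPM against 0.9 to 10.4 CPM. A single barcode held 65.9% of the Hspa1a and 71.6% of the Hspa1b UMIs of that sum.

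In NK cell-like cells, sample 2, with 34 cells, was low for Fosb (66.5 against 108 to 111 CPM) and high for Atf3 (121 against 17.8 to 21.3 CPM), Egr1 (90.7 against 42.7 to 45.0 CPM) and Ier3 (188 against 24.4 to 43.3 CPM). It was also high for Gadd45b (296 against 91.6 to 124 CPM) and Socs3 (236 against 144 to 153 CPM). These sums held 11 to 49 UMIs each. Hspa1a stood at 10.2 CPM in sample 7, from 4 UMIs in 1 cell, and at 0 in the other 3 samples.

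In endothelial-like cells, Klf4 was high in sample 4 (601 against 286 to 395 CPM), and Dusp1 in sample 8 (826 against 489.7 to 578 CPM). Hspa8 was high in sample 8 as well (2209 against 1315 to 1695 CPM), where 1 barcode held 43.1% of its UMIs and the level without it was 1631 CPM. In Krt8-positive barcodes, Jun was low in sample 1 (136 against 269 to 316 CPM), with 50 barcodes, and Nfkbia was high in sample 7 (519.5 against 234 to 344 CPM).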

How the results depend on the processing

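In the 5 comparisons, 4 members changed sign and were past the threshold on one side or the other, all with every cell thinned to 2000 UMIs. There Dusp1 stood at 0.30 (adjusted p = 0.0287) for microglia-like against monocyte-like cells, Dusp2 at 0.036 (adjusted p = 0.843) and Socs3 at 0.026 (adjusted p = 0.900) for macrophage-like against monocyte-like cells, and Rhob at 0.027 (adjusted p = 0.828) for endothelial-like cells against Krt8-positive barcodes. The first was not called without thinning, and the cause was not tested. Members that kept their call in every alternative that tested them were 21 of 29 for microglia-like against monocyte-like cells, 12 of 17 for macrophage-like against monocyte-like, 23 of 26 for microglia-like against macrophage-like, 5 of 13 for CD8 T cell-like against NK cell-like and 25 of 29 for endothelial-like cells against Krt8-positive barcodes.

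Counts that moved by over 1.5 times were small ones, and the cause was not tested. Thinning to 2000 UMIs gave 4 lower members for microglia-like against monocyte-like cells. It gave 4 higher members for macrophage-like against monocyte-like cells, as did scaling by total UMIs and no filter on low counts, and 3 higher for CD8 T cell-like against NK cell-like cells. For microglia-like against macrophage-like cells, scaling by total UMIs and DESeq2 each gave 2 lower members, and leaving out 1 sample gave 2 to 3. For CD8 T cell-like against NK cell-like cells, DESeq2 gave 2 higher and 5 lower, sums of at least 10 cells 1 higher and 5 lower, and the hashtag margin rule 8 higher.

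Leaving out 1 sample gave 20 to 22 higher and 5 to 7 lower members for microglia-like against monocyte-like cells, 2 to 3 and 15 to 16 for macrophage-like against monocyte-like, and 21 to 22 higher for microglia-like against macrophage-like. It gave 4 to 5 higher and 6 to 11 lower for CD8 T cell-like against NK cell-like cells, and 23 to 26 higher and 3 lower for endothelial-like cells against Krt8-positive barcodes. Without the replicate block the counts of higher and lower members were 21 and 7, 2 and 13, 21 and 3, 5 and 8, and 24 and 3, with the comparisons in the order microglia-like against monocyte-like, macrophage-like against monocyte-like, microglia-like against macrophage-like, CD8 T cell-like against NK cell-like and endothelial-like against Krt8-positive.

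Thinned to 1000 UMIs, the median correlation of AP-1 with NF-kB feedback was 0.57 in microglia-like, 0.34 in monocyte-like, 0.52 in macrophage-like and 0.49 in endothelial-like cells. In endothelial-like barcodes of at most 30000 UMIs it was 0.59, and that of NF-kB feedback with heat shock -0.027. In CD8 T cell-like and NK cell-like cells, Egr2, Egr3, Hspa1a and Hspa1b did not pass the filter on low counts.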
